A study of Saccharomyces cerevisiae with 20 samples.

Results

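The libraries described here are the 6 quiescent libraries of days 1, 2, 3, 24, 34 and 44, chosen by their labels from 20 libraries of a chronologically aged budding yeast culture (Saccharomyces cerevisiae). The comparison sets the 3 early days against the 3 late days, so that the growth between day 0 and day 1 does not enter it, and the 6 non-quiescent libraries of the same days serve only as a contrast. The culture was a pool of barcoded strains derived from JDY86, a MATa haploid in which the HHT1-HHF1 locus is deleted and marked with NatMX4, and in which HHT2-HHF2 is replaced by the synthetic genes HHTS-HHFS, marked with URA3, as the only source of histones H3 and H4. All groups share these alleles, and the strain counted as wild type carries the synthetic genes without a mutation. The pool was diluted into fresh rich medium (YPD) and shaken, aliquots were taken on single days, and a Percoll density gradient parted the quiescent from the non-quiescent cells. Each fraction and day gave 1 library, so the days of a side are serial samples of 1 culture and not separate cultures, and every p-value below measures only the spread among those days. The day and fraction come from the labels alone, and no marker in these data tests that a library holds quiescent cells.

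Quiescent yeast are unbudded, dense cells that leave the division cycle when glucose runs out, keep their viability for weeks and can grow again, whereas the lighter non-quiescent cells lose viability sooner. Their chromatin is compacted and largely silent. Histones H3 and H4 each have an unstructured N-terminal tail that is acetylated, methylated and phosphorylated, and a folded core of helices joined by loops that winds the DNA. In this pool a strain's barcode count is a measure of its share of the cells, so a value for a mutation says how that strain fared against the other strains of the same library, not how many cells survived. In such a pool, fewer cells of a strain and a smaller part of its cells in the gradient fraction cannot be told apart.

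Each strain was counted by a pair of 20-base barcodes, named up and down, which were amplified in separate reactions. The barcodes of the highest and the lowest strains are shown because their counts carry the results that follow, and are written 5′ to 3′ in lower case.
H4K16A up: ctaacgtctttgaacttggg
H4K16A down: aagaaggtttaattcgcccg
H4H18Q up: gcccaaataagacgtgagcc
H4H18Q down: aggaatgcacgcgaactacc
H3[del 4-15] up: tagtgacttagaccctccgt
H3[del 4-15] down: tatacttgcgtaacgggccg
H3Q68A up: agtattcggctccacagcgt
H3Q68A down: atgcgaccttgtggcaattt
The barcodes of the wild type are shown because 1 of them is listed for a second strain as well. Capitals mark the sequence that the barcode table gives both as the up barcode of the wild type and as the down barcode of H3G13A.
Wild type up: TTGCTTTGAGGACGTCCCAC
Wild type down: ccaccttgtccttaggacac
H3G13A up: tagcatccgcgaatgtgtcc
H3G13A down: TTGCTTTGAGGACGTCCCAC
The deposited counts of that sequence differed between the strains. In the order of days 1, 2, 3, 24, 34 and 44 it was counted 763, 637, 658, 768, 1488 and 809 times for the wild type's up barcode and 161, 137, 157, 28, 309 and 104 times for the down barcode of H3G13A.

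The 6 libraries held between 126647 (day 24) and 337544 counts (day 34). A mean of at least 10 counts over the 20 libraries was required of a strain, which 347 of 422 named strains met: the wild type, 297 strains with a single changed residue, 46 with a shortened tail and 3 with more than 1 substitution. The median of these kept strains had 206 to 486 counts per library. The day 24 library stood apart in that 87.6% of its kept counts came from up barcodes, against 50.8% to 64.2% in the other 5, and results were therefore also computed without it and with either barcode alone. Levels are log2 counts (0.5 in place of a count of 0) relative to the median kept strain of the same library, and a difference is the mean level of the 3 late days minus that of the 3 early days, with the standard error (SE) from those 3 and 3 values. Across strains, levels correlated with r between 0.926 and 0.982 within the early days, between 0.973 and 0.986 within the late days, and between 0.667 and 0.842 from early to late, given here as a description over the 347 strains of a shared culture. With days 24, 34 and 44, day 1 correlated at 0.842, 0.809 and 0.792 and day 2 at 0.760, 0.731 and 0.694. Day 3 stood furthest from them, at 0.737, 0.711 and 0.667. The early days are therefore not 1 stable level, and each difference averages over a shift among them whose cause was not tested.

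Most of the pool shifted. By edgeR's quasi-likelihood test with Benjamini-Hochberg adjustment over the 347 strains, 245 strains (70.6%) had an adjusted p under 0.05, of which 124 were higher late (35.7% of strains) and 121 lower (34.9%). A single strain's call therefore says little by itself, and counts in a group of mutants are read against these shares. The differences had an SD of 1.41 on the log2 scale. They were skewed in size: 15 strains were over 4-fold higher and 34 over 4-fold lower, 2 over 8-fold higher and 19 over 8-fold lower. Both barcodes, taken alone, gave the same sign for 242 of the 245 called strains. When each of the 6 libraries was left out in turn, 99 of the higher and 99 of the lower strains passed every time. The split between higher and lower depended on the scaling. With library totals in place of the median strain every difference was 0.36 lower and 74 strains were called higher against 152 lower, and with the wild type as the reference every difference was 0.34 lower and the counts were 80 and 153. The larger changes described below are well outside these shifts, and small positive differences have a sign on the median scale only.

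The wild type itself was among the more abundant strains. Its level was 1.86, 1.76 and 1.82 on days 1, 2 and 3 and 2.12, 2.19 and 2.15 on days 24, 34 and 44, a difference of 0.34 (SE 0.04, edgeR adjusted p = 0.037). All 3 late values lay above all 3 early values. On the scale of library totals its difference was -0.02, so its direction was not settled, and it did not pass with either barcode alone or without day 1, 2, 3, 34 or 44. On the median scale 142 strains had a larger difference than the wild type and 204 a smaller one.

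The highest differences of the pool were those of H4K16A, H4H18Q and H4H18A. H4K16 is the lysine whose acetylation keeps the Sir silencing complex off chromatin, and it lies with H4H18 in the basic patch of the H4 tail (residues 16 to 20), which contacts neighbouring nucleosomes and silencing proteins. H4K16A was counted 94, 57 and 74 times on the early days and 285, 1076 and 607 times on the late days. It was low in every early library and above the median strain in every late one, a difference of 3.13 (8.78-fold, SE 0.30, edgeR adjusted p = 3.79e-05). The acetylation-like H4K16Q went from levels of 1.01, 0.38 and 0.52 to 2.70, 3.66 and 3.51, and H4K16R, which keeps the charge of an unmodified lysine, from 1.87, 1.30 and 1.39 to 3.14, 3.76 and 3.60. Their differences were 2.65 (SE 0.36) and 1.98 (SE 0.26), so all 3 substitutions of this lysine rose, and both barcodes of each rose when taken alone.

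H4H18Q had 464, 222 and 240 counts early and 1137, 3870 and 2067 late, a difference of 3.02 (SE 0.36, edgeR adjusted p = 7.79e-05). H4H18A had 480, 247 and 211 counts early and 950, 4191 and 1996 late, a difference of 2.95 (SE 0.44). The 2 substitutions of this histidine thus lay within 1 SE of each other. Over the whole basic patch 7 of 12 kept strains rose (58.3%) and 1 fell, with a median difference of 1.20 against 0.08 over all strains. The strain that fell was H4R19K at -0.48 (SE 0.11), and H4K20A, at -0.32, passed only without day 1, with its up barcode alone or with library totals or the wild type as the reference. With library totals the patch counted 6 higher and 5 lower.

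**Figure D1:**
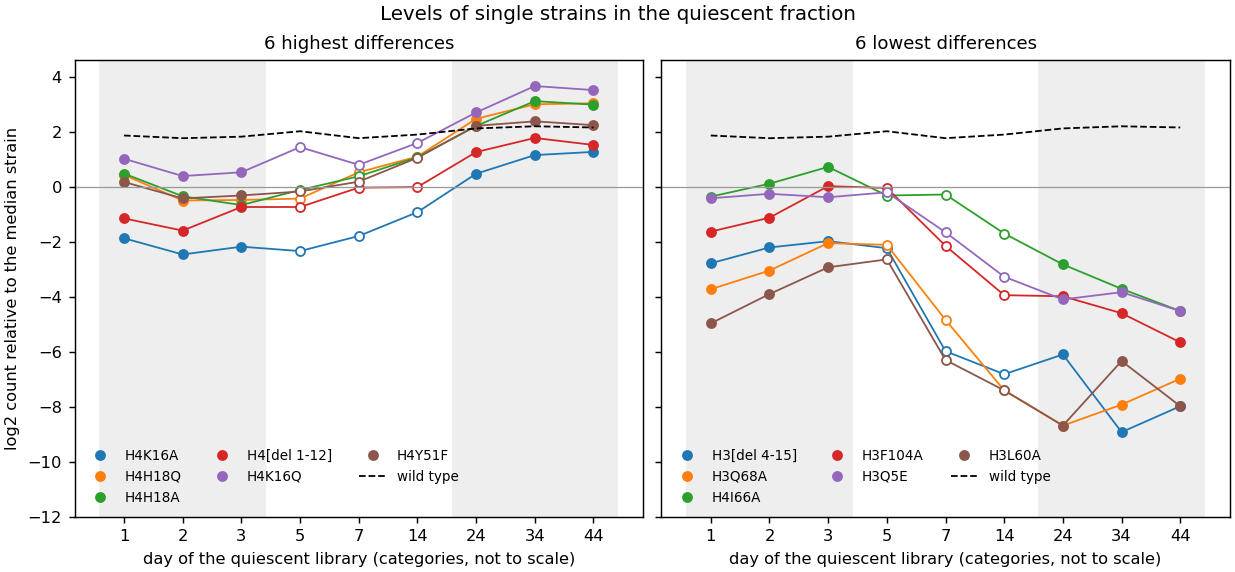
Level (log2 count relative to the median strain of the library) on each sampled day from day 1 in the quiescent fraction, for the 6 highest and the 6 lowest differences that passed the test, with the wild type dashed; filled points on grey are the early and late days compared, and open points are days 5, 7 and 14. H4K16A moved from levels of -1.88 to -2.47 early to 0.47 to 1.26 late, and H3Q68A from -3.73 to -2.05 early to -8.69 to -6.98 late.

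Of the other H4 tail strains, H4N25D stood out by how tightly its days agreed, with levels of 0.31, 0.25 and 0.17 early and 2.53, 2.72 and 2.62 late, a difference of 2.38 (SE 0.07, edgeR adjusted p = 2.61e-06). H4N25A, the other kept strain at this residue, stood at 0.27 and did not pass. At the other end H4R3K fell from 201, 308 and 522 counts to 32, 76 and 29 (difference -2.77, SE 0.43), and H4I29A fell too (-2.38, SE 0.31). Over residues 1 to 29 of H4, 22 of 47 kept substitutions rose and 11 fell, with a median of 0.33, while library totals gave 11 higher and 16 lower and a median of -0.03.

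Deletions of the H4 tail differed in sign between overlapping pieces. Removal of residues 1 to 4 alone was among the lowest strains of the pool, with 108, 188 and 286 counts early and 16, 29 and 10 late (difference -3.25, SE 0.51, edgeR adjusted p = 0.00027). Removal of residues 1 to 12, which includes those 4, was among the highest, with 155, 104 and 201 counts early and 492, 1656 and 723 late (2.68, SE 0.29, edgeR adjusted p = 5.11e-05). Deletions of residues 5 to 12 (2.43, SE 0.22), 9 to 12 (2.33, SE 0.08), 9 to 16 (1.94, SE 0.20) and 5 to 8 (1.25, SE 0.12) all rose as well. Of the 15 H4 deletions kept out of 20 listed, 8 rose and only the deletion of residues 1 to 4 fell, with the same counts under library totals and under the wild type reference. The median was 1.13. The 6 that did not pass began at residue 13 or later, among them the deletion of residues 17 to 24 at -0.15 (SE 0.41).

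The strain with glutamine at H4K5, K8, K12 and K16 together, which imitates a fully acetylated tail, rose by 2.37 (SE 0.48, edgeR adjusted p = 0.00131), from levels of -2.76, -2.78 and -1.34 to 0.10, 0.00 and 0.14. Its down barcode alone gave 1.00 and did not pass.

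**Figure D2:**
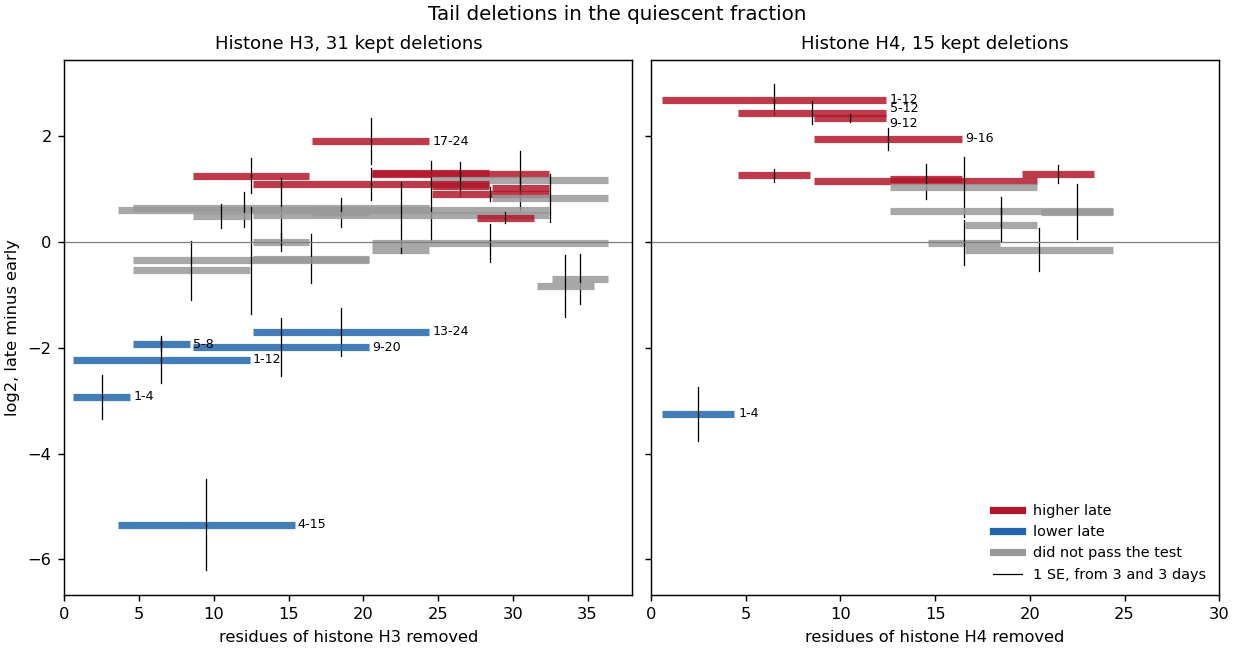
Difference in the quiescent fraction (log2, late minus early) of each kept tail deletion, drawn as a bar from the first to the last residue removed, with a vertical line of 1 SE either way. In H4 the deletion of residues 1 to 4 lay at -3.25 and that of residues 1 to 12 at 2.68, and in H3 the deletions of residues 1 to 4 and 1 to 12 lay at -2.93 and -2.23.

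Strains changed at the tip of the H3 tail fell. This group was drawn after its values were seen, and its counts are a description. H3K4, which the Set1 complex methylates at active genes, and its neighbours R2, T3 and Q5 form the end of the tail that methyl-lysine readers bind. All 10 kept substitutions at residues 1 to 5 fell, with a median of -3.05 and a range from -3.80 to -0.88, against 34.9% of all strains. The count was 10 of 10 under library totals, under the wild type reference, with either barcode alone and without each of the 6 libraries.

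Within the tip, H3Q5E fell from 257, 263 and 257 counts to 12, 34 and 11 (difference -3.80, SE 0.21, edgeR adjusted p = 1.15e-05) and H3Q5A from 504, 426 and 510 to 30, 73 and 29 (-3.41, SE 0.13). H3R2K was one of the most abundant strains early, with 1218, 1453 and 1773 counts, and had 108, 213 and 94 late (-3.33, SE 0.22, edgeR adjusted p = 1.08e-05). Its alanine counterpart H3R2A was rarer, with 86, 83 and 88 counts early and 10, 13 and 6 late, yet fell by a like amount (-3.04, SE 0.32). Both changes of T3, a phosphorylatable threonine, fell too, H3T3D from 439, 431 and 462 counts to 29, 70 and 36 (-3.23, SE 0.04, edgeR adjusted p = 2.5e-06) and H3T3A from 635, 556 and 495 to 58, 100 and 36 (-3.06, SE 0.30). In each of these strains every late library lay below every early one.

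At H3K4 all 3 replacements fell. H3K4A went from 170, 191 and 195 counts to 20, 44 and 9 (-3.04, SE 0.48, edgeR adjusted p = 0.000143), H3K4Q from 55, 72 and 85 to 16, 14 and 6 (-2.48, SE 0.57), and H3K4R from 208, 236 and 298 to 68, 104 and 37 (-1.76, SE 0.38). The differences among the 3 were not tested. The smallest change of the tip was H3A1S at -0.88 (SE 0.10). The deletions that remove this tip and were kept fell as well, that of residues 1 to 4 from 550, 564 and 526 counts to 77, 87 and 38 (-2.93, SE 0.41, edgeR adjusted p = 9.8e-05) and that of residues 1 to 12 from 44, 24 and 21 to 5, 10 and 3 (-2.23, SE 0.44). Of 10 listed deletions that begin at residue 1, these 2 had enough counts to be kept.

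Beyond the tip the H3 tail was mixed. Of 67 kept substitutions at residues 6 to 43, 29 rose and 16 fell, with a median of 0.23, while library totals gave 12 higher and 24 lower and the fit without day 2 gave 20 and 10. H3H39Q (1.77, SE 0.60) and H3K27A (1.51, SE 0.14) were the highest, but H3H39Q did not pass with library totals, with the wild type as the reference or without day 2. Among all H3 tail deletions, 9 of 31 kept rose and 6 fell (51 were listed), and the 6 include the 2 tip deletions above. Of the 29 kept that start at residue 4 or later (41 were listed), 9 rose and 4 fell. This group and that of residues 6 to 43 were also drawn after the values were seen. The deletion of residues 17 to 24 rose by 1.90 (SE 0.44) and that of residues 21 to 28 by 1.30 (SE 0.21), whereas that of residues 5 to 8 fell by 1.94 on the log2 scale (SE 0.13).

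The lowest value of the whole pool was the H3 deletion of residues 4 to 15. It was counted 50, 68 and 85 times early and 3, 1 and 1 times late, a difference of -5.34 (40.6-fold lower, SE 0.86, edgeR adjusted p = 0.000127). The 5 late counts have an exact 95% Poisson interval of 1.62 to 11.7, which covers counting error only. A longer deletion that starts at the same residue, of residues 4 to 20, had 28, 14 and 18 counts early and 18, 33 and 29 late, and its 0.61 did not pass (SE 0.34).

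Lysines of the tails that histone acetyltransferases modify (H3K9, K14, K18, K23 and K27 and H4K5, K8, K12 and K16) counted 21 of 27 kept substitutions higher (77.8%) and 2 lower, with a median of 0.64. On the median scale this was the largest share of higher strains among the lists of 9 or more. With library totals 13 rose and 2 fell, a smaller share than the 8 of 15 H4 tail deletions and the 6 of 12 basic patch strains. At H3K14, H3K23 and H4K16 the alanine, arginine and glutamine strains all rose. The exceptions were H3K18Q and H4K12R. H3K18Q, at a lysine that Gcn5 acetylates, fell from 207, 344 and 657 counts to 60, 65 and 16 (-3.01, SE 0.80, edgeR adjusted p = 0.00191), while H3K18A rose by 0.61 (SE 0.24) and H3K18R by 1.21 (SE 0.18). H4K12R fell by 0.92 on the log2 scale (SE 0.19), while H4K12A and H4K12Q stood at 0.64 and 0.62.

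Of 9 kept strains at the methylated lysines H3K4, H3K36 and H3K79, 4 fell (44.4%, against 34.9% of all strains) and 1 rose, with a median of -0.38, and 3 of the 4 were the H3K4 strains of the tail tip. At H3K36, the Set2 site in transcribed genes, the 3 replacements did not share a call. H3K36A fell from 132, 183 and 213 counts to 27, 49 and 29 (-2.18, SE 0.25) and H3K36Q stood at -0.06 (SE 0.41). H3K36R rose by 0.81 (SE 0.26, edgeR adjusted p = 0.017). It did not pass with library totals, with the wild type as the reference or without day 2 or 44. At H3K79, the Dot1 site, none passed on the median scale, with 0.32 for H3K79A (SE 0.28), 0.25 for H3K79R (SE 0.11) and -0.38 for H3K79Q (SE 0.32).

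The listed phosphorylatable tail residues (H3T3, S10, T11 and S28 and H4S1) had 4 of 10 strains higher and 4 lower, or 2 lower without day 34 or day 44. These shares are near the 35.7% and 34.9% of all strains. The lower ones in the list included both T3 strains. Outside the list, H3T6A and both strains at each of H3S31 and H3T32 fell and H3S22A rose, while H3T6D and H3S22D did not pass. H3S10A, at a serine phosphorylated in mitosis, rose by 1.01 (SE 0.26) and H3S28D by 0.80 (SE 0.20). At H3T11 both strains rose slightly, H3T11D from levels of 0.26, 0.13 and 0.10 to 0.66, 0.88 and 1.04 (0.69, SE 0.12, edgeR adjusted p = 0.00172) and H3T11A from 0.21, 0.10 and 0.10 to 0.55, 0.64 and 0.52 (0.43, SE 0.05, edgeR adjusted p = 0.009). H3T11D did not pass with its down barcode alone (0.37). H3T11A did not pass with library totals (0.07), with the wild type as the reference (0.09) or with its up (0.30) or down barcode alone (0.38).

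**Figure D3:**
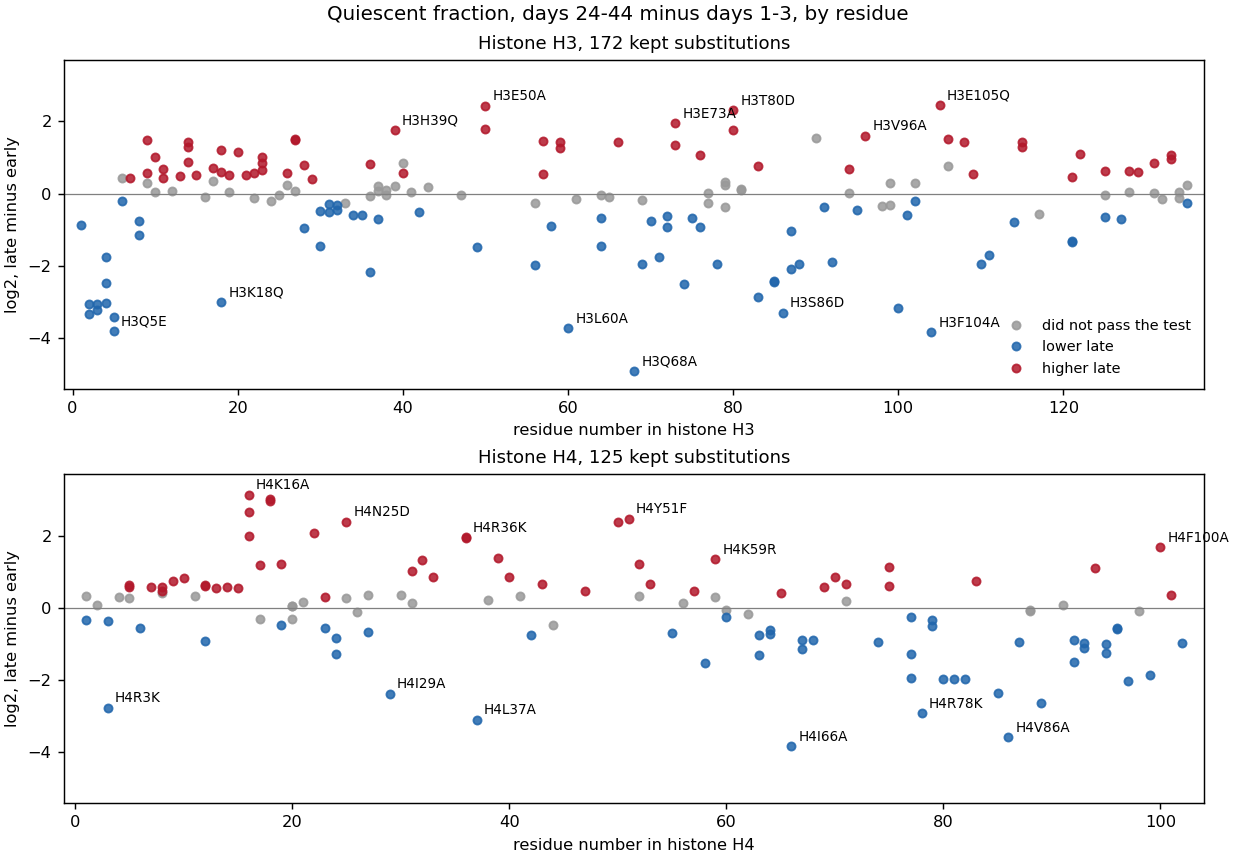
Difference in the quiescent fraction (log2, late minus early) of each kept single substitution against its residue number, for H3 (172 strains) and H4 (125 strains), coloured by the edgeR call. The 10 substitutions at H3 residues 1 to 5 all lie below 0, and 19 of the 21 at H4 residues 77 to 93 do.

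In the folded cores the lower strains gathered in particular elements. H4 residues 77 to 93, which hold the second loop and the third helix, had 17 of 21 kept strains lower and 1 higher, with a median of -1.12 and 17 lower under library totals. H4V86A fell from levels of -2.94, -1.87 and -1.56 to -4.69, -5.47 and -6.98 (-3.59, SE 0.79, edgeR adjusted p = 0.000734). H4R78K fell from 37, 142 and 224 counts to 7, 27 and 10 counts (-2.92, SE 0.83). The strain that rose was H4S83A at 0.74 (SE 0.11), and H4K91R was near the median strain at 0.07 on the median scale. The adjoining C-terminus had 7 of 11 lower, among them H4L97A (-2.04, SE 0.66, on 16, 13 and 29 early counts) and H4G99A (-1.86, SE 0.45), with H4F100A higher at 1.68 (SE 0.20) and H4G94A at 1.09 (SE 0.17). H4L97A did not pass without day 34.

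The rest of H4 was less one-sided. At residues 30 to 48, 9 of 16 rose and 2 fell (6 and 3 with library totals), with H4R36A and H4R36K both higher at 1.95 (SE 0.29) and 1.96 (SE 0.14), and H4L37A, the next residue, from 233, 334 and 544 counts to 29, 57 and 28 (-3.10, SE 0.38). H4G42A, at -0.76 (SE 0.29), passed but not with its up barcode alone or without day 1, 2, 24, 34 or 44. At residues 49 to 76, in the second helix, 12 of 30 rose and 12 fell. Its start held the high strains H4Y51F, from 388, 234 and 269 counts to 953, 2518 and 1191 (2.47, SE 0.19, edgeR adjusted p = 1.51e-05), and H4I50A (2.38, SE 0.26). Further along, H4I66A had 268, 339 and 552 counts early and 29, 37 and 11 late (-3.84, SE 0.58, edgeR adjusted p = 0.000127), and H4L58A was at -1.53 (SE 0.23).

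In H3 the first helix (residues 63 to 77) had 11 of 20 lower and 4 higher, and the long second helix 16 of 29 lower and 6 higher, with medians of -0.65 and -0.37. H3Q68A was the lowest single substitution. It was counted 26, 38 and 81 times early and 0, 2 and 2 times late, a difference of -4.92 (30.3-fold lower, SE 0.69, edgeR adjusted p = 0.000559). The 4 late counts have an exact 95% Poisson interval of 1.09 to 10.2. In the same helix H3I74A fell by 2.51 on the log2 scale (SE 0.48), while H3E73A rose by 1.95 (SE 0.17) and H3P66A by 1.43 (SE 0.21).

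In the second helix of H3, H3F104A fell from 111, 144 and 340 counts to 13, 20 and 5 (-3.83, SE 0.69) and H3S86D from 889, 1073 and 1261 to 80, 208 and 53 (-3.30, SE 0.36, edgeR adjusted p = 3.79e-05). Its high strains were H3E105Q, from 215, 142 and 140 counts to 470, 1457 and 705 (2.45, SE 0.21, edgeR adjusted p = 2.59e-05), and H3V96A (1.60, SE 0.17). H3E105 is one of the SIN positions, where changes relieve the need for the remodeller SWI/SNF. The other kept SIN strain, H4V43A, rose by 0.66 (SE 0.18), which did not pass with library totals or with the wild type as the reference.

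Before the first helix, 6 of 13 kept strains at H3 residues 44 to 62 rose and 4 fell. Both E50 strains rose, H3E50Q from 459, 254 and 289 counts to 658, 1836 and 823 (1.80, SE 0.24, edgeR adjusted p = 0.000122) and the rare H3E50A from 23, 7 and 10 to 22, 109 and 73 (2.43, SE 0.64, edgeR adjusted p = 0.00375). Lower were H3L60A, from 11, 21 and 44 counts to 0, 6 and 1 (-3.73, SE 0.91), and H3K56Q (-1.99, SE 0.33), at the core lysine that Rtt109 acetylates on new H3. H3K56A, the other kept strain at that lysine, stood at -0.26 and did not pass. From the end of the second helix to the C-terminus of H3, 10 of 23 rose and 5 fell, which turned to 4 and 10 with library totals. H3K115R (1.44, SE 0.15) led there, with H3K115Q at 1.29 (SE 0.38) on 6, 10 and 8 early counts, and H3K121A (-1.32, SE 0.09) and H3K121Q (-1.34, SE 0.34) were lowest. H3K115Q did not pass with library totals, with the wild type as the reference, with its down barcode alone or without day 1, 3, 34 or 44.

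The loop around H3K79 and the nearby H4 residues 78 to 81 make up the surface whose mutation weakens silencing. Of 23 kept strains of this surface 6 rose and 10 fell. H3T80D rose from 561, 335 and 402 counts to 897, 3800 and 1893 (2.31, SE 0.33, edgeR adjusted p = 0.00013) and H3T80A by 1.77 (SE 0.21). In the same loop H3R83A, which removes an arginine that reaches into the DNA minor groove, fell from 329, 354 and 362 counts to 36, 62 and 34 (-2.86, SE 0.16, edgeR adjusted p = 1.15e-05), while the charge-keeping H3R83K rose by 0.77 (SE 0.12). H3F78A fell by 1.94 on the log2 scale (SE 0.29). The minor-groove arginines listed were H3R63, R72 and R83 and H4R45. Of these only H3R83 and H3R72 had kept strains. H3R72 fell with either replacement, H3R72A at -0.91 (SE 0.05) and H3R72K at -0.63 (SE 0.14).

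Across both cores, large hydrophobic residues changed to alanine counted 14 of 26 lower (53.8%) and 7 higher, with a median of -0.68, and 6 of the 32 listed had too few counts to be kept. The listed core lysines were H3K56, K64, K115 and K122 and H4K31, K44, K59, K77, K79 and K91. They counted 8 of 19 lower (42.1%) and 5 higher (26.3%, or 3 strains without day 34). These shares are near the 34.9% and 35.7% of all strains. H3K79, H3K121 and H3K125 were not in this list. Within it H4K77Q fell by 1.94 on the log2 scale (SE 0.27) and H4K59R rose by 1.35 (SE 0.10).

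**Figure D4:**
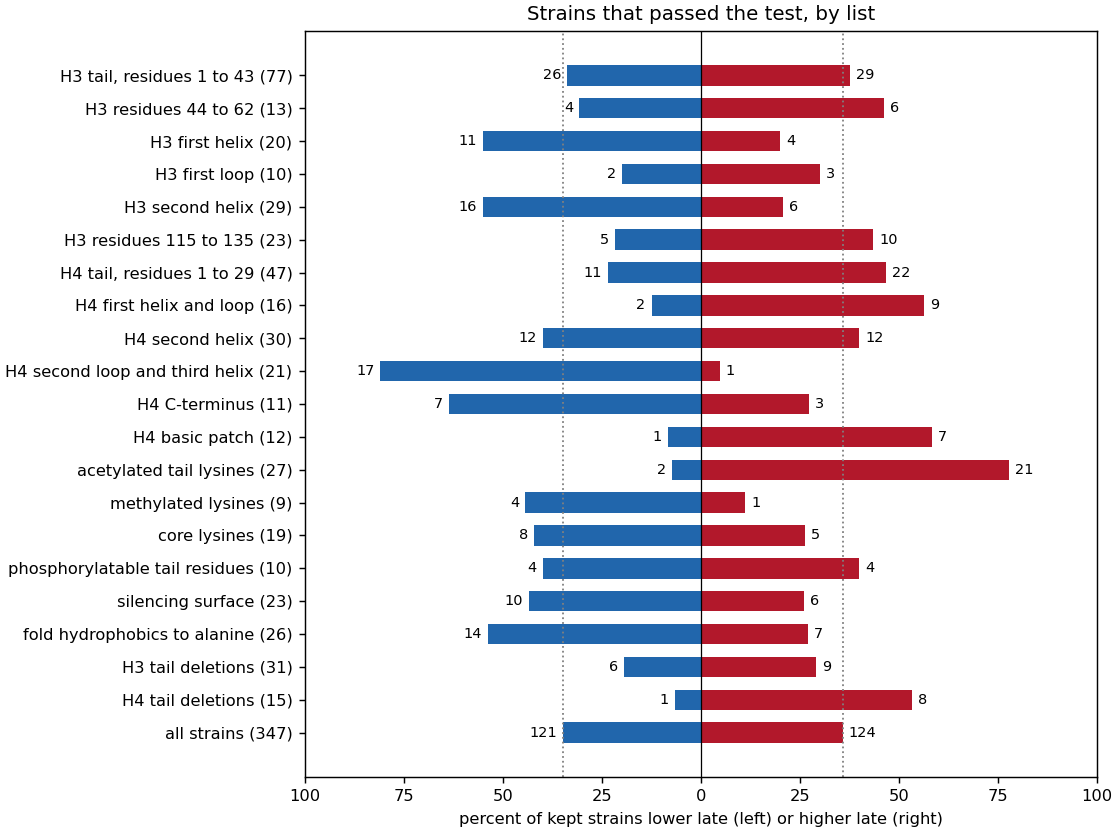
Percent of the kept strains of each list (number in brackets) that passed the edgeR test as lower (left, blue) or higher (right, red) on the late days, with the number of strains at each bar end and dotted lines at the shares of all strains, 34.9% and 35.7%. On this median scale the acetylated tail lysines reach furthest to the right with 21 of 27, and the second loop with the helix after it in H4 furthest to the left with 17 of 21.

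Different changes of 1 residue did not always share a direction. Of 85 residues with at least 2 kept substitutions, all substitutions rose at 14 and all fell at 22. The 35.7% and 34.9% of all strains called higher and lower are shares of single strains. They are no baseline for counts of residues at which every substitution shares a call, and no such baseline was computed. At 39 others at least 1 substitution did not pass, without calls in both directions. At the remaining 10 at least 1 rose and 1 fell. Those 10 were H3K18, S28, K36, Q76, R83, K121 and K125 and H4K12, R19 and R23. The strains that fell there carried alanine or glutamine at 6 of them and arginine or lysine at the other 4. At 21 lysines with both, glutamine was below arginine at 15 and above it at 6, with a median difference of -0.30 (SD 1.23). Aspartate was above alanine at 13 of 18 serines and threonines, with a median difference of 0.21 (SD 0.69). Neither was tested.

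Days 5, 7 and 14 lay between the 2 sides and took no part in choosing the calls, although the values are given against the same early mean. At day 5 the higher strains had a median of 0.29 from their early mean, the lower strains -0.13 and the strains that did not pass 0.20, and at day 7 the medians were 0.07, -0.27 and -0.07, so the medians of the higher strains and of those that did not pass were lower at day 7 than at day 5. The values of days 2, 3 and 5 need care. Quiescent day 5 correlated at 0.974 with non-quiescent day 3, against 0.908 with quiescent day 3 and 0.874 with quiescent day 7. Non-quiescent day 5 correlated at 0.984 with quiescent day 3 and at 0.896 with non-quiescent day 3. Quiescent day 2 correlated at 0.958 to 0.966 with non-quiescent days 24, 34 and 44, and quiescent day 3 at 0.950 to 0.965. Non-quiescent days 2 and 3 stood lower with those libraries, at 0.908 to 0.922. Non-quiescent day 1 was closer to quiescent day 2 (0.957) than to non-quiescent day 2 (0.945). Quiescent day 1 was closer to quiescent day 2 (0.960) than to non-quiescent day 2 (0.904). Days 2 and 3 are early days of the comparison and of the interaction fit. The labels were kept and the reason was not tested. At day 14 the higher and lower strains had medians of 0.52 and -0.53, with 123 of 124 higher strains above their early mean and 113 of 121 lower strains below it, while 72 of the strains that did not pass were above it, with a median of 0.13. On days 24, 34 and 44 the higher strains stood at 0.88, 1.01 and 1.01 and the lower strains at -1.15, -1.30 and -1.23. Part of the pool departed sooner. The H3 deletion of residues 4 to 15 was already at -3.66 from its early mean at day 7 and H3Q68A at -1.90, and at day 14 H3Q68A stood at -4.46 and H3Q5E at -2.92 from the early mean, with H3K4A at -0.90 and H4K16A at 1.25.

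The same days of the non-quiescent fraction moved much less. Their differences had an SD of 0.58 across strains, against 1.41, and 77 strains passed (22.2%), 42 higher and 35 lower. That count rested on single days, since it fell to 8 without day 24, 20 without day 34 and 10 without day 44 and rose to 170 without day 1. The difference between the fractions was tested itself, as the interaction of side with fraction over the 12 libraries with day as a block, and 210 strains passed (60.5%), 99 with the quiescent change more positive and 111 with it more negative. Of the strains that passed in both fractions, 16 were higher in both, 12 lower in both and 18 opposite.

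The 10 strains of the H3 tip had a median of 0.40 in the non-quiescent fraction against -3.05 in the quiescent one, and all 10 passed the interaction with the quiescent change more negative. This group was drawn after its quiescent values were seen. The interaction uses those values again, so the count is no separate support. Over all 347 kept strains, 111 passed with the quiescent change more negative and 99 with it more positive. H3R2A and the H3 deletion of residues 1 to 4, which fell in the quiescent fraction, rose in the non-quiescent one, by 1.17 (edgeR adjusted p = 0.041) and 1.07 (edgeR adjusted p = 0.018). Of the 27 acetylated lysine strains 22 passed with the quiescent change more positive and 1 with it more negative, and their non-quiescent median was -0.47. H4 residues 77 to 93 passed as more negative in 16 of 21. Some strains passed in both fractions in the same direction, with no difference between the fractions past the threshold. The H3 deletion of residues 4 to 15 fell by 3.49 on the log2 scale in the non-quiescent fraction (edgeR adjusted p = 0.016), with an interaction of -1.73 that did not pass (edgeR adjusted p = 0.12), and the strain with 4 glutamines in H4 rose by 2.09 there (edgeR adjusted p = 0.0084) with an interaction of 0.09 (edgeR adjusted p = 0.87).

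**Figure D5:**
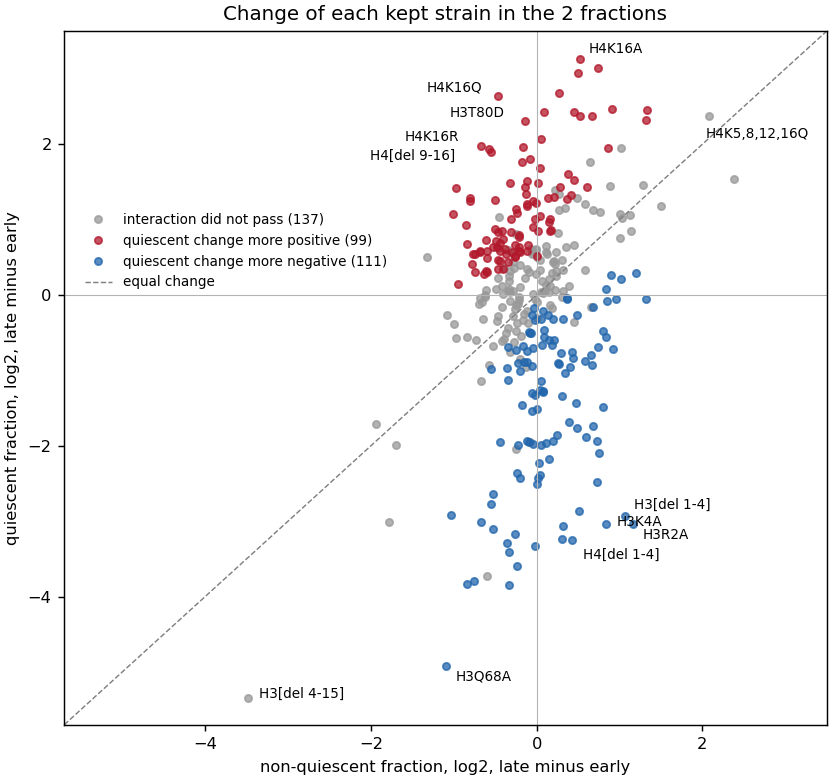
Difference late minus early (log2) of each of the 347 kept strains in the non-quiescent fraction (horizontal) and the quiescent fraction (vertical), coloured by the edgeR interaction test, with a dashed line of equal change. The points spread far more up and down (SD 1.41) than sideways (SD 0.58), and H3R2A and the H3 deletion of residues 1 to 4 lie to the right of 0 and far below it.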

How the data were processed

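Barcode counts were deposited per library. Per the labels and the study's methods, genomic DNA of each fraction gave separate up and down barcode reactions, sequenced from 1 end on an Illumina HiSeq, and the authors counted barcodes with get_seqs_from_fastq and match_barcodes_to_strain. The deposited values are raw read counts, and the mismatch rule and versions are not given in the sources used here. Each file lists 488 barcode pairs, of which 65 have no strain name and stayed unnamed (10.6% to 15.2% of the counts of the 6 libraries). A deposited table of the authors' own log2 ratios to the start was not used. No genome coordinates apply, and residues are numbered without the initiator methionine.

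The counts of both barcodes of a strain were added, strains under a mean of 10 counts over the 20 libraries were left out, and 68 strains were at 0 throughout. Tests used edgeR 4.0.16 (R 4.3.3, quasi-likelihood F-test, TMM, Benjamini-Hochberg adjusted p under 0.05) on 3 against 3 libraries, with 4 residual degrees of freedom and a biological coefficient of variation of 0.175. The interaction fit had 12 libraries, day as a block and 4 residual degrees of freedom. Days were taken as independent although they are serial samples. Alternatives were DESeq2 1.42.0, limma 3.58.1, other scalings and filters, each barcode alone and each library left out. Amplified reads are not independent molecules, so intervals cover counting error only.

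Named strains were the 12 highest and 12 lowest that passed with both barcodes on 1 side, the wild type and all strains at H4K16, H4H18, H3E50, H3T11, H3K4, H3K36 and H3K79, the 2 highest and 2 lowest of each list, and the 5 strongest interactions each way. Others were named after their values were seen. The members, lists and tests were chosen with earlier results of these data known, and lists are described with no test. Levels, differences and plots were computed in Python 3.11.15 (pandas 2.3.3, numpy 2.4.6, matplotlib 3.10.9, scipy 1.17.1).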

Additional observations from a re-analysis of the deposited data

Results flagged for a closer look

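Changes that differed most between the fractions are given as the log2 interaction estimates of the edgeR fit. A negative estimate means that the quiescent change was the more negative. This fit scales libraries by TMM, so its estimates are not exactly the gaps between the median-scale changes of the 2 fractions. The 5 most negative were H3R2A at -4.37 (edgeR adjusted p = 0.000594), the H3 deletion of residues 1 to 4 at -4.17 (edgeR adjusted p = 0.000574), H3K4A at -3.97 (edgeR adjusted p = 0.00114), H3Q68A at -3.96 (edgeR adjusted p = 0.0152) and the H4 deletion of residues 1 to 4 at -3.86 (edgeR adjusted p = 0.00948). Removal or alteration of the first residues of either tail makes up 4 of these 5. The 5 most positive were H4K16Q at 2.92, H4K16R at 2.47, H4K16A at 2.44, the H4 deletion of residues 9 to 16, which includes K16, at 2.32, and H3T80D at 2.27, with edgeR adjusted p between 9.25e-05 and 0.00123. All 3 replacements of H4K16 are among them. In the non-quiescent fraction the H4K16 strains had differences of -0.46 (H4K16Q), -0.67 (H4K16R) and 0.52 (H4K16A), none of which passed.

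Barcode pairs without a strain name held counts as well, up to 15.2% of a library (day 3) among the 6 libraries. Of the 65 pairs 57 had counts. On the scale of the kept strains their differences ran from -4.96 to 1.67 with a median of 0.53, with 6 over 2-fold higher and 1 over 2-fold lower, and no strain can be assigned to them here.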

How the results depend on the processing

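The 245 strains called in the quiescent fraction ranged from 208 to 260 when a library was left out, from 208 to 248 under the other planned settings, and 236 were called the same way by DESeq2. The count of higher strains (124) was 74 with library totals, which makes 32.7% of the calls higher against 50.6%, and 80 (34.3%) with the wild type as the reference, while lower strains (121) were 152 and 153. The non-quiescent count (77) ran from 8 to 170 when 1 of its libraries was left out and the interaction count (210) from 172 to 263 when a day was. The cause was not tested. Of 79 named strains that passed, 6 missed the threshold without some library, and over all 945 comparisons of a named strain with a setting 889 kept their direction and side of the threshold. The only named strain that passed and changed sign was the wild type, at -0.021 with library totals. Strains that had not passed changed sign in 13 comparisons. With library totals H3K79A stood at -0.039, H3K79R at -0.109 and H4K91R at -0.298, with the wild type as the reference at -0.018, -0.088 and -0.276, and with the up barcode alone H3K79A stood at -0.014 and H3K79Q at 0.205. When a library was left out, H3K36Q ranged from -0.263 to 0.234 (above 0 without day 1 or 34), H4K91R from -0.050 to 0.165 (below 0 without day 3 or 24), and the H4 deletion of residues 17 to 24 from -0.396 to 0.240 (above 0 without day 3). Depth limits the lowest strains, since 5 kept strains had under 10 late counts in all. No paired analysis was possible of early against late days within a fraction because each day has 1 library and the days of the 2 sides do not pair, while the interaction fit pairs the fractions by day.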
